A study of Mus musculus with 9 samples.

Results

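The pyrimidine breakdown genes described here are Tymp, Upp1, Upp2, Cda, Dpyd, Dpys and Upb1, which are 7 of the 19686 genes in the count table of rat liver RNA. They were chosen by their place in the pathway, and the set was chosen on the rise of Tymp under fructose, so the levels of Tymp in the model group against the control group are given as a description with no test. All 7 symbols were found in the table, and 6 of them passed the filter on low counts, the exception being Cda. Liver RNA of 9 male Wistar rats was sequenced, 3 from each group. The control group drank purified water and received saline by gavage. The model group drank 15% fructose for 8 weeks and received saline by gavage. The HME group drank the same fructose and was gavaged with 1.8 g/kg of HME, the 50% methanol extract of the herbal formula Danggui-Shaoyao-San, and its libraries carry the label DSS. All rats were fasted for 12 h and anaesthetised with chloral hydrate before the liver was taken. The labelled organism is the mouse, but the labelled strain (Wistar rat) and the gene identifiers belong to the rat, and the libraries were read as rat. The ages of the rats and the hour at which they were killed are not given in the sources used here. No group drank plain water together with HME, so an action of the extract apart from fructose was not measured.

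Pyrimidine nucleosides are taken apart in steps. 5'-Nucleotidases release the nucleoside from its phosphate, cytidine deaminase (Cda) turns cytidine into uridine, and the phosphorylases cut the base from the sugar: Tymp encodes thymidine phosphorylase and Upp1 and Upp2 encode the uridine phosphorylases. The free bases uracil and thymine then pass down a reductive chain, in which dihydropyrimidine dehydrogenase (Dpyd) reduces the ring, dihydropyrimidinase (Dpys) opens it and beta-ureidopropionase (Upb1) releases beta-alanine or beta-aminoisobutyrate. The liver is the main site of this chain and clears most of the uridine that reaches it in portal blood. Dpyd is also known as the rate-limiting step in the clearance of the drug 5-fluorouracil.

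Total counts ranged from 14345819 to 26837227 per library. Levels are given as CPM, edgeR's depth-scaled count with TMM-normalized library sizes, so that a level can be set against the same gene in another rat. Gene lengths of the rat were not used here, so levels are compared between rats for a gene and not between genes. Bulk RNA was measured, so fewer cells of a type and less RNA per cell cannot be told apart. The 8 hepatocyte markers were detected in every library and summed to between 112769 and 179179 CPM, most of it Alb (87212 to 145607 CPM). They did not move as a block. Cps1, Cyp2e1, Tat and Hnf4a were lower in every model rat than in every control rat (FDR 0.117 to 0.371, none called). Alb, Ttr, Serpina1 and Apoa1 overlapped between these groups. Their log2 fold changes for model against control were 0.34, 0.39, 0.17 and 0.09 (FDR 0.527 to 0.926). Over all genes, 21.1% did not overlap in this comparison. Cps1 and Cyp2e1 lay higher in all HME rats than in any model rat (FDR 0.384 and 0.0738), where 14% of all genes did not overlap. Cyp2e1, for example, stood at 1671 to 1986 CPM in the control rats, 1111 to 1241 CPM in the model rats and 2013 to 3051 CPM in the HME rats. The part of these differences in the levels of the members was not tested. A gene counted as called where its log2 fold change was 0.5 or more in either direction with an FDR of 0.01 or less in edgeR's quasi-likelihood test, adjusted over all genes tested, and every FDR below is from that test. An interval is the 95% interval of the fitted log2 fold change.

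Tymp (ENSRNOG00000032394) was the breakdown gene with the widest gap between water-fed and fructose-fed rats. The control rats stood at 137, 165 and 123 CPM, the model rats at 416, 395 and 482 CPM, and the HME rats at 399, 373 and 431 CPM. All 6 fructose-fed rats lay above all 3 control rats, and the lowest fructose-fed rat was an HME rat. The group means were 142 ± 21.2, 431 ± 45.3 and 401 ± 29.1 CPM (SD, n = 3). The fitted log2 fold change was 1.60 for the model group against the control group, a ratio of 3.04, and this is the value Tymp was chosen on. Against the same control rats the HME group stood 1.50 higher on the log2 scale, a ratio of 2.82, which shares those controls and is likewise a description. Counts behind these values ran from 1851 to 9719 per library, so counting error was small beside the spread between rats.

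The comparison of the HME group with the model group is not the rise Tymp was chosen on, although it shares the model libraries. There the levels of Tymp overlapped, and the fitted difference was -0.10 on the log2 scale (standard error 0.14, FDR 0.915). The interval ran from -0.43 to 0.23, that is from 0.743 to 1.18 times the model level. The interval is not read against the step under fructose, since Tymp was chosen on that step in the same model libraries.

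**Figure D1:**
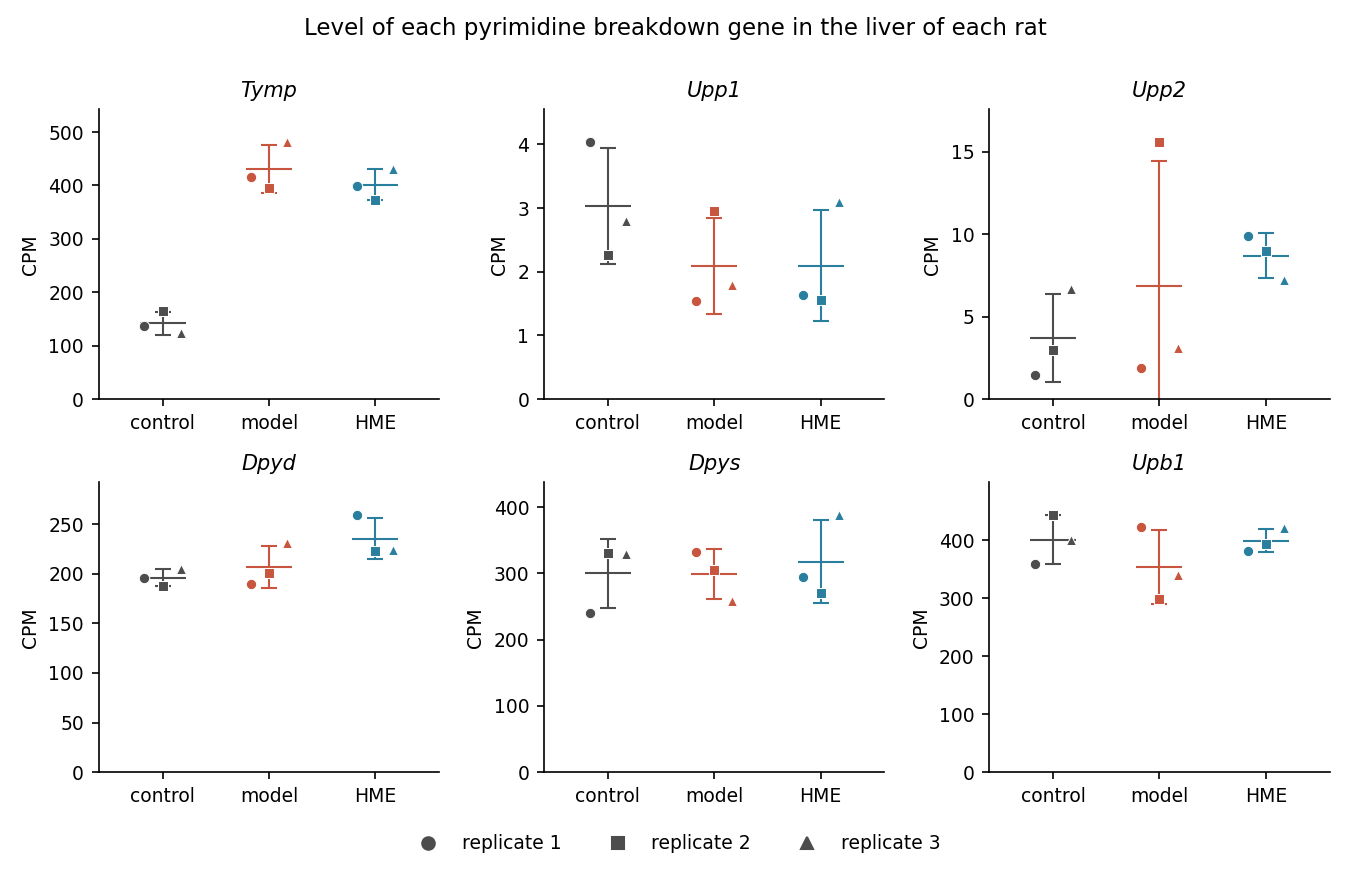
Level of the 6 breakdown genes that passed the filter in each rat, in CPM on axes that start at 0 and differ between panels. Points are rats with the shape giving the replicate number, the long bar is the group mean and the whiskers are 1 SD over 3 rats (the lower whisker of Upp2 in the model group would pass below 0 and ends at the axis). The fructose-fed rats stand between 373 and 482 CPM for Tymp against 123 to 165 CPM in the control rats, while the groups overlap in Upp1, Dpys and Upb1.

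Upp1 (ENSRNOG00000004972), the uridine phosphorylase found in many tissues, was scarce. The control rats stood at 4.05, 2.27 and 2.80 CPM, the model rats at 1.54, 2.96 and 1.79 CPM and the HME rats at 1.63, 1.56 and 3.10 CPM. The ranges of the 3 groups overlapped, and no comparison passed the test. The log2 fold change was -0.56 for model against control (interval -1.37 to 0.25, FDR 0.543), 0.02 for HME against model (interval -0.89 to 0.93, FDR 0.994) and -0.54 for HME against control (interval -1.32 to 0.23, FDR 0.371). With 29 to 101 counts per library these intervals leave room for a change of more than 1 on the log2 scale in the comparisons with the control group.

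Upp2 (ENSRNOG00000005341), the uridine phosphorylase known from liver, had the widest spread of the 6 tested members among the control rats and among the model rats, but not among the HME rats. The control rats stood at 1.44, 2.98 and 6.66 CPM, the model rats at 1.88, 15.6 and 3.08 CPM and the HME rats at 9.90, 9.01 and 7.23 CPM. The coefficient of variation over 3 rats was 72.5% for control, 111% for model and 15.6% for HME. All HME rats lay above all control rats, and model replicate 2 lay above every other rat. The log2 fold change of HME against control was 1.27 (standard error 0.50, interval 0.08 to 2.47) and did not pass the test (FDR 0.183); without control replicate 3 it was 2.01 (FDR 0.0169) and without control replicate 1 it was 0.86 (FDR 0.199). For model against control it was 0.89 (interval -1.03 to 2.81, FDR 0.693) and for HME against model 0.37 (interval -1.19 to 1.94, FDR 0.926). Model replicate 2 set both: without it the log2 fold change of model against control turned to -0.56 and that of HME against model rose to 1.82, with an FDR of 0.0643.

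The uridine phosphorylases were also set against each other within each library, since a ratio of counts from the same library does not depend on library size. The count ratio of Upp2 to Upp1 ranged from 0.356 to 2.38 among control rats, from 1.22 to 5.28 among model rats and from 2.33 to 6.07 among HME rats. Gene length enters this ratio equally in every rat, so it compares rats and says nothing of which gene was more abundant. The mean log2 ratio was 0.05 ± 1.40, 1.16 ± 1.10 and 2.12 ± 0.78 among the control, model and HME rats (SD, n = 3). The difference between the HME and control groups was 2.06 with p = 0.2 in a two-sided exact permutation test (adjusted p = 0.8 over 12 ratio tests), where 0.1 is the smallest p that 3 rats against 3 can give.

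Cda (ENSRNOG00000015677) was almost without reads. It had 1 count in all 9 libraries together, in model replicate 3, and 0 in the others. A count of 0 allows up to 3 counts, which is 0.112 CPM by total counts in the deepest library and 0.209 CPM in the shallowest, a limit that covers counting error only. A second gene annotated as cytidine deaminase-like (LOC100909857) also had 1 count in total, in control replicate 2. Neither could be tested, and an effect of fructose or HME on the deaminase step was not detectable at this depth.

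No gene of the reductive chain was called in any comparison. Dpyd (ENSRNOG00000017105), which takes the first and rate-limiting step, stood at 196, 187 and 205 CPM in the control rats, 189.8, 201 and 231 CPM in the model rats and 259.6, 223 and 224 CPM in the HME rats. The HME rats all lay above the control rats, by a small step. The log2 fold change of HME against control was 0.26 (standard error 0.11, interval 0.0045 to 0.52), a ratio of 1.20, and did not pass the test (FDR 0.198). It was 0.08 for model against control (interval -0.23 to 0.38, FDR 0.842) and 0.19 for HME against model (interval -0.13 to 0.52, FDR 0.827). The within-group spread of Dpyd was narrow, with a coefficient of variation of 4.46%, 10.2% and 8.87% among the control, model and HME rats.

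Dpys (ENSRNOG00000004298), which opens the reduced ring, stood at 239.5, 331 and 329 CPM in the control rats, 333, 305 and 259 CPM in the model rats and 294, 270.2 and 389 CPM in the HME rats. The ranges of the groups overlapped almost fully. The log2 fold change was -0.01 for model against control (interval -0.41 to 0.40, FDR 0.992), 0.10 for HME against model (interval -0.32 to 0.51, FDR 0.931) and 0.08 for HME against control (interval -0.33 to 0.49, FDR 0.831).

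Upb1 (ENSRNOG00000038258), which ends the chain, stood at 359, 444 and 399 CPM in the control rats, 423, 299 and 339 CPM in the model rats and 382, 394 and 421 CPM in the HME rats. The lowest value belonged to model replicate 2 and the highest to control replicate 2. The log2 fold change was -0.18 for model against control (interval -0.58 to 0.22, FDR 0.708), 0.18 for HME against model (interval -0.20 to 0.55, FDR 0.861) and -0.01 for HME against control (interval -0.29 to 0.27, FDR 0.973). For Dpyd, Dpys and Upb1 the 9 intervals reached at most -0.58 on the lower side and 0.55 on the upper, so a change by a factor of 1.5 in either direction lay beyond the edge of each of them.

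**Figure D2:**
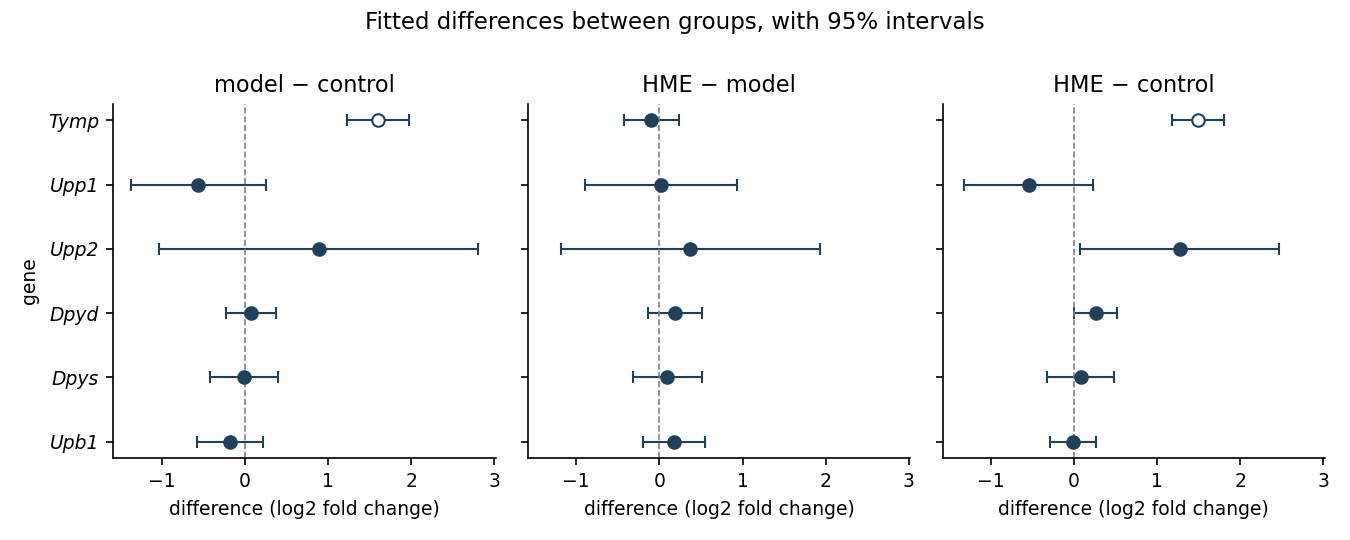
Fitted log2 fold change of each tested breakdown gene (rows) in the 3 comparisons (panels), with its 95% interval; the dashed line marks no difference. Open circles mark Tymp against the control group, the value the set was chosen on and its companion that shares the controls. The intervals of Dpyd, Dpys and Upb1 lie close to 0 in every panel, and those of Upp1 and Upp2 are the widest.

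Counts of the members are read here beside the same counts over all genes. Against the control group, 1 of the 6 tested members was called in the model group, Tymp, where 0.0801% of 12486 genes were called, and Tymp was also the only member whose rats did not overlap, where 21.1% of genes did not overlap. Between the HME and model groups 0 of 6 members were called and 0 did not overlap, where 0.136% of 12502 genes were called and 14% did not overlap. At an unadjusted p under 0.05 the number of members there was also 0, where 8.02% of genes passed. Between the HME and control groups 1 member was called, again Tymp, where 1.48% of 12633 genes were called, and 3 did not overlap (Tymp, Upp2 and Dpyd, all higher in the HME group), where 30.1% of genes did not overlap. Nothing is read from the counts that rest on Tymp against the control group. Among the other 5 tested members, 0 were called in any comparison, and the 2 of 5 without overlap between HME and control stand beside 30.1% over all genes. These 2, Upp2 and Dpyd, also had an unadjusted p under 0.05 for HME against control, where 24.3% of genes did, and 0 of the 5 did for model against control, where 13.2% of genes did.

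Ratios were also taken within the chain. The count ratio of Dpys to Dpyd lay between 1.22 and 1.77 in the control rats, 1.12 and 1.75 in the model rats and 1.13 and 1.74 in the HME rats. The ratio of Upb1 to Dpyd lay between 1.83 and 2.37 in the control rats, 1.47 and 2.23 in the model rats and 1.47 and 1.88 in the HME rats. The largest of the 9 differences in log2 ratio within the chain was -0.26, for Upb1 to Dpyd in the model group against the control group, with p = 0.3 in a two-sided exact permutation test (adjusted p = 0.8). The same ratio was also -0.26 in the HME group against the control group, with an exact permutation p = 0.2, and both correspond to 0.833 times the control ratio. With 0.1 as the smallest p, these tests do not show that the proportions were the same. By contrast the count ratio of Tymp to Dpyd, which the rule fixes in part, was 0.601, 0.702 and 0.880 in the control rats in rising order, 1.97 to 2.19 in the model rats and 1.54 to 1.93 in the HME rats. The HME rats lay between the other groups in this ratio without touching either, and no test is given since the model and control values of Tymp chose it.

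The genes around the breakdown steps were taken from 6 lists: 5'-nucleotidases, salvage enzymes, de novo synthesis, handling of beta-amino acids, products of the pentose phosphates, and nucleoside transporters. Of 50 listed symbols 46 were in the table. In the model group against the control group 0 of 42 tested genes were called, and 6 had an unadjusted p under 0.05 (13.2% of all genes did). In the HME group against the model group 0 of 41 were called, and again 6 had an unadjusted p under 0.05 (8.02% of all genes). In the HME group against the control group 1 of 41 was called, Umps, which was down-regulated, and 11 had an unadjusted p under 0.05 (24.3% of all genes). The groups did not overlap in 12, 8 and 12 of these genes in the order of the comparisons above, where 21.1%, 14% and 30.1% of all genes did not overlap. The median log2 fold change was -0.11, -0.09 and -0.07, beside medians over all genes of -0.0011, 0.00078 and -0.0080.

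Umps encodes the enzyme that makes UMP, the end product of de novo pyrimidine synthesis. The control rats stood at 42.2, 54.0 and 43.5 CPM, the model rats at 45.0, 35.1 and 33.2 CPM and the HME rats at 21.0, 25.0 and 26.7 CPM. Every HME rat lay below every model rat and every control rat. Umps fell in the HME group against the control group by 0.95 on the log2 scale (standard error 0.14, FDR 0.00606). Compared with the model group the difference was -0.64 (interval -1.02 to -0.25) and did not pass the test (FDR 0.292). The call against the control group was lost when any 1 of the 6 rats was left out, with FDR values from 0.0141 to 0.0237, while the log2 fold change stayed between -1.01 and -0.82. De novo synthesis as a list had a median of -0.25, -0.20 and -0.25 in the 3 comparisons, with 0 of 10, 0 of 9 and 1 of 9 tested genes called.

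Among salvage enzymes Tk1, the cytosolic thymidine kinase that phosphorylates the substrate of Tymp, had the largest differences. It stood at 13.5, 20.5 and 22.4 CPM in the control rats, 8.99, 9.58 and 8.27 CPM in the model rats and 5.71, 6.26 and 8.83 CPM in the HME rats. The control rats lay above all fructose-fed rats. The log2 fold change was -1.07 for model against control (FDR 0.0844), -0.36 for HME against model (FDR 0.773) and -1.43 for HME against control (FDR 0.0112), so none passed the test. Tk2, the mitochondrial thymidine kinase, was named after its values were seen: it stood at 11.7 to 13.4 CPM in the control rats and at 15.05 to 20.4 CPM in the fructose-fed rats, with log2 fold changes of 0.51 (FDR 0.262) and 0.55 (FDR 0.0320) against the control group. Of the salvage list 0 of 11 tested genes were called in each comparison. Tk1 is known to follow cell division, and the 5 markers of proliferating cells summed to between 3.70 and 7.25 CPM in the control rats, 6.29 and 13.8 CPM in the model rats and 1.03 and 4.91 CPM in the HME rats. Their part in the levels of Tk1 was not tested.

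Of the other pathway lists no gene was called. Among 5'-nucleotidases (0 of 6 tested) Nt5m, a mitochondrial enzyme, had the largest difference for model against control, 0.53 on the log2 scale (FDR 0.452), and Nt5c3b the largest for HME against model, 0.77 (FDR 0.384). Among nucleoside transporters (0 of 3 tested) Slc28a2, a sodium-coupled carrier of purine nucleosides and uridine, stood at 79.5 to 106 CPM in the control rats and 115 to 236 CPM in the model rats, a log2 fold change of 0.91 (FDR 0.179), and at 90.8 to 163 CPM in the HME rats. Downstream of Upb1, where beta-alanine and beta-aminoisobutyrate are used (0 of 8 tested), the taurine and beta-alanine carrier Slc6a6 had the largest difference for model against control, -1.10 (FDR 0.301), and the carnosine synthase Carns1 the largest for HME against model, 1.04 (FDR 0.583), on levels of at most 3.28 and 1.19 CPM. Of the genes that take up the sugar phosphate released by the phosphorylases (0 of 4 tested), Pgm2 was at -0.29 for model against control (FDR 0.637) and Pgm1 at -0.40 for HME against model (FDR 0.598). Rrm2, a subunit of ribonucleotide reductase, was tested for model against control only, at -0.99 (FDR 0.619).

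**Figure D3:**
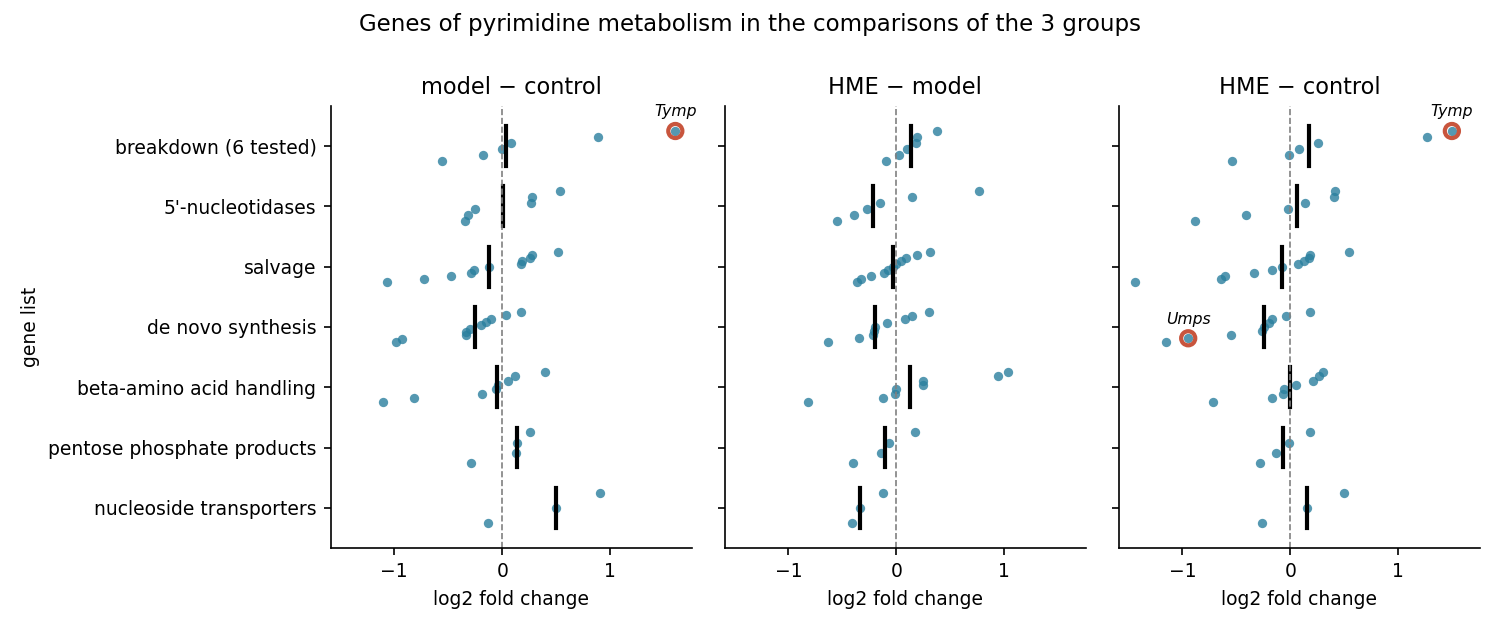
Log2 fold change of each tested gene (points) of the breakdown genes and of the 6 surrounding lists (rows) in the 3 comparisons (panels). Black bars are list medians and red rings mark genes called at both thresholds, which are Tymp in the comparisons with the control group and Umps in the HME group against the control group. Tymp was chosen on its rise under fructose, so its rings are a description with no test.

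Tymp lies in a crowded stretch of the genome, and the reads were counted without regard to strand, so its neighbours were read as well. In the mouse annotation (GRCm38.p6, used for neighbours only) Ncaph2 and Sco2 overlap Tymp, and Odf3b lies beside it without overlap. Sco2 had no entry under that symbol in the rat count table, so its level could not be read. Ncaph2, a condensin subunit, stood at 18.2 to 23.0 CPM in the control rats, 16.3 to 17.1 CPM in the model rats and 19.4 to 22.1 CPM in the HME rats, with a log2 fold change of -0.26 for model against control (FDR 0.496). Odf3b, named for a sperm tail protein, stood at 1.24, 3.88 and 3.20 CPM in the control rats, 8.39, 5.92 and 9.01 CPM in the model rats and 8.97, 4.75 and 7.96 CPM in the HME rats. The fructose-fed rats all lay above the control rats, and the log2 fold change of 1.51 against the control group (FDR 0.150) was close in size to that of Tymp but did not pass the test, nor did that of 1.41 for HME against control (FDR 0.0884). Odf3b had 0.903% to 2.59% of the counts of Tymp in each library, and whether its reads are separate from those of Tymp was not tested.

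The genes whose levels ran most like Tymp over the 9 libraries were found by Pearson's r of log2(CPM + 0.5) among 12896 other genes. They were Kynu (r = 0.993), Gk (r = 0.989), Etfdh (r = 0.985), Galt (r = 0.979) and Amdhd1 (r = 0.976). Kynu encodes kynureninase of tryptophan breakdown, Gk glycerol kinase, Etfdh the electron transfer flavoprotein dehydrogenase, Galt galactose-1-phosphate uridylyltransferase and Amdhd1 an enzyme of histidine breakdown. Kynu had group means of 90.5, 253 and 223 CPM in the control, model and HME groups, and Galt of 13.3, 33.8 and 36.6 CPM. In Etfdh the step was smaller, with means of 196, 298 and 301 CPM. The 9 points fall into a control cluster and a fructose-fed cluster, so these values describe that shared step, and no p is given. Among the other members, Tymp had r = 0.52 with Dpyd, 0.34 with Upp2, 0.11 with Dpys, -0.24 with Upb1 and -0.56 with Upp1 over the same 9 libraries.

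For Upp2, the member other than Tymp with the largest fold change in any comparison, the most alike genes were Pam (r = 0.939), Renbp (r = 0.915), Lnpk (r = 0.911), Ormdl1 (r = 0.909) and Blm (r = 0.909). They were picked as the highest r among 12896 genes over 9 libraries, so they are a description and no p is given. Renbp and Ormdl1 were scarce, with group means of 1.24 to 1.82 CPM. Pam had means of 39.2, 40.1 and 47.8 CPM among the control, model and HME rats, and Blm of 1.91, 2.78 and 2.90 CPM. Transcripts of the circadian clock differed between the same rats. Dbp, a clock output factor, stood at 28.2, 13.7 and 26.2 CPM in the control rats, 6.12, 53.8 and 4.63 CPM in the model rats and 49.3, 68.7 and 30.9 CPM in the HME rats. Nr1d1, a clock repressor, stood at 8.53, 2.03 and 5.66 CPM, 13.2, 81.7 and 27.3 CPM, and 105, 101 and 83.8 CPM in the same order. Model replicate 2 was the highest model rat in Upp2, Dbp and Nr1d1. In other clock genes it was the lowest model rat, with 17.3 CPM of Arntl against 34.6 and 36.6 CPM and 15.05 CPM of Npas2 against 26.8 and 33.6 CPM. Among the control rats the order did not match, since control replicate 1 was the highest in Dbp and Nr1d1 and the lowest in Upp2. Model replicate 2 also stood apart from model replicates 1 and 3 in markers of some other cells. These summed for endothelial cells to 267 CPM against 101 and 87.8 CPM. For Kupffer cells and leukocytes they summed to 488 CPM against 381 and 235 CPM. Stellate cell markers summed to 123 CPM against 76.9 and 87.2 CPM and those of proliferating cells to 13.8 CPM against 6.29 and 7.22 CPM. Bile duct markers were lowest in this rat among the model rats, at 13.5 CPM against 27.7 and 21.2 CPM. Hepatocyte markers were lowest in this rat too, at 133542 CPM against 179179 and 148909 CPM. Its red cell markers, at 600 CPM against 606 and 394 CPM, were not the highest. Interferon-stimulated genes summed to 468 CPM in model replicate 2 against 351 and 348 CPM. The clock genes were set beside Upp2 after their values were seen. The part of the clock genes, of hepatocytes and other cells or of the interferon-stimulated genes in the levels of Upp2 was not tested.

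**Figure D4:**
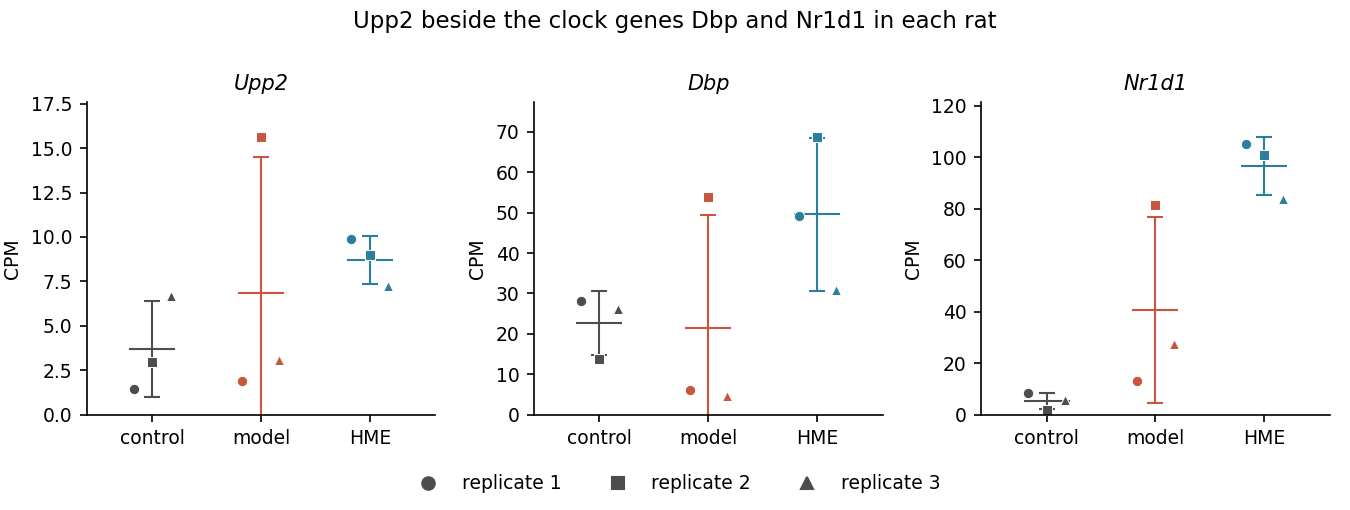
Level of Upp2, Dbp and Nr1d1 in each rat, in CPM on axes that start at 0, drawn as in the plot of the members by rat. Model replicate 2 (square) stands at 15.6, 53.8 and 81.7 CPM in the 3 panels, above the other model rats. Control replicate 1 (circle) is the highest control rat in Dbp and Nr1d1 and the lowest in Upp2. The lower whiskers of the model group in Upp2 and Dbp would pass below 0 and end at the axis.

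The clock list as a whole had 11 tested genes, of which 0 rose and 1 fell (Per2) in the model group against the control group, 0 were called between the HME and model groups, and 1 rose (Npas2) and 2 fell (Per2 and Cry1) in the HME group against the control group. Per2, a clock repressor, stood at 75.0 to 89.3 CPM in the control rats and at 12.6 to 17.0 CPM in all 6 fructose-fed rats. This is the same split of the rats as in Tymp. Groups without overlap were common, at 21.1% of genes for model against control and 30.1% for HME against control. The call of Per2 in the model group was lost without any 1 of the control rats (FDR 0.0117 to 0.0234). Npas2, a clock activator, stood at 1.20 to 2.63 CPM in the control rats, 15.05 to 33.6 CPM in the model rats and 8.47 to 12.8 CPM in the HME rats. Its log2 fold change was 3.92 for model against control (FDR 0.0111, called without model replicate 2 at 4.18 with an FDR of 0.00588) and 2.59 for HME against control, and the latter lost its call without control replicate 1 or 3 or HME replicate 1 or 3 (FDR 0.0115 to 0.0185). Cry1, a clock repressor, stood at 24.7 to 33.2 CPM in the control rats and 3.62 to 5.93 CPM in the HME rats, and it fell by 2.63 on the log2 scale, with a difference of -1.51 (FDR 0.141) between the HME and model groups. The hour of killing is not given in the sources used here, and the part of the clock in the step of Tymp was not tested.

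Markers of other liver cells were read beside the members. Of 12 Kupffer cell and leukocyte markers, the 10 whose symbols were in the count table were summed. They came to 298 to 637 CPM in the control rats, 235 to 488 CPM in the model rats and 320 to 447 CPM in the HME rats. Endothelial markers (5 of 6) summed to 135 to 229, 87.8 to 267 and 137 to 197 CPM, stellate cell markers (6 of 6) to 94.8 to 106, 76.9 to 123 and 103 to 116 CPM, bile duct markers (4 of 4) to 14.9 to 21.7, 13.5 to 27.7 and 18.9 to 21.4 CPM, and red cell markers (6 of 7) to 441 to 1188, 394 to 606 and 360 to 731 CPM. In each of these lists the sums of the groups overlapped, 0 genes were called in any comparison, and no marker in the table was at 0 in all libraries. Some single markers did not overlap between 2 groups, where 14% to 30.1% of all genes did not, depending on the comparison. Interferon-stimulated genes were read because Tymp is known to respond to interferon: 0 of 12 were called in each comparison, the median log2 fold change was -0.06 for model against control and -0.33 for HME against control, and Ifit1 had the largest difference for model against control at -2.53 (FDR 0.365), which was -0.97 without control replicate 1, the rat at 23.0 CPM where the other control rats stood at 2.92 and 3.79 CPM. Rsad2 had the largest for HME against model at -0.89 (FDR 0.546).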

How the data were processed

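Liver RNA of 9 rats was sequenced by the authors after poly(A) enrichment. They aligned the reads with HISAT2 2.0.5, assigned them to exons with HTSeq 0.6.1 (unstranded mode), and deposited raw counts per gene; the submitters' processing notes name the build Rnor_6.0. Strand was not used to separate the reads of overlapping genes. A table of assembled transcripts (9 columns of values) was not used, since its unit is not stated. Groups came from the sample titles.

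Each comparison was fitted on its 6 libraries with edgeR 4.0.16 in R 4.3.3 (filterByExpr, TMM, robust glmQLFit, two-sided glmQLFTest, Benjamini-Hochberg adjustment over all genes tested). TMM factors were 0.871 to 1.14. Intervals were derived from the quasi-likelihood F statistic. The edgeR p-values set the difference between groups against the spread between rats within groups, and take the rats as independent. The paper states that rats were put into groups at random. Nothing states that rats of a group were independent in housing. Libraries of a group differed by far more than counting error (chi-square per gene 19.6 to 71.4). The scripts were tested on simulated data. Of the symbols listed, 9 were not matched. No rat genome, gene length or sequence was used here.

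The members and gene lists were chosen with earlier results of these data known. Named genes were all members, each gene of a list past both thresholds, the gene with the largest absolute fold change of each pathway list in the model against control and HME against model comparisons, and the 5 genes most correlated with Tymp and with the other member of largest fold change. Tk2, Dbp, Nr1d1 and Arntl lie outside this rule, having been chosen with their values in view. The alternatives changed the scaling (DESeq2's size factors, or no TMM), the filter (none, or a minimum of 10 counts in every library), the test (DESeq2 1.42.0), the libraries (9 together, or 1 rat removed), the thresholds (an FDR of 0.05, or no fold limit), the design (the replicate number as a block) and, for ratios, the counts (0.5 added).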

Additional observations from a re-analysis of the deposited data

How the results depend on the processing

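Tymp kept its direction under all 13 refits. It stood between 1.46 and 1.73 on the log2 scale for model against control and between 1.36 and 1.62 for HME against control. Tymp was chosen on its rise in these libraries, so the kept direction is no support for that rise. For HME against model the log2 fold change of Tymp stayed between -0.16 and -0.01. The number of members called for model against control was 1 in the main fit, which rests on the choice of Tymp and is no support for it. This number was 0 with library size alone, 0 with the replicate number as a block and 0 when any 1 rat was left out. None of the other members was called in any refit.

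The number of genes called for model against control (10) was 71 with no filter, 256 in DESeq2, 25 with all 9 libraries in one fit and 75 at an FDR of 0.05. For HME against model (17) it was 11 with library size alone, 38 with no filter, 147 in DESeq2 and 57 at an FDR of 0.05. For HME against control (187) it was 489 with no filter, 769 in DESeq2, 113 with all 9 libraries and 804 at an FDR of 0.05. Library size alone gave 57 higher and 181 lower genes there, against 83 and 104, and moved the median of all genes by -0.14 in both comparisons with the control group. Without 1 rat the numbers were 0 to 10, 2 to 12 and 86 to 132. Same-numbered rats did not deviate together (correlations -0.25 to -0.015), so the numbers do not pair the samples; with the replicate number as a block the numbers were 0, 7 and 104.

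Some values changed sign in a refit. Most of these were near 0 in the main fit, but Upp2 stood at 0.89 for model against control and at 0.37 for HME against model. Library size alone gave -0.062 for Dpyd in model against control, -0.017 for Upp1 in HME against model and -0.056 for Dpys in HME against control; the replicate block gave 0.00064 for Dpys in model against control and -0.0024 for Upp1 in HME against model. Without 1 rat the log2 fold changes for model against control were -0.56 to 1.63 for Upp2, -0.0053 to 0.12 for Dpyd and -0.14 to 0.089 for Dpys; for HME against model they were -0.37 to 0.34 for Upp1, -0.086 to 1.82 for Upp2 and -0.074 to 0.20 for Dpys; for HME against control they were -0.080 to 0.19 for Dpys and -0.082 to 0.076 for Upb1. The log2 ratio of Dpys to Dpyd was -0.23 to 0.11 for model against control and -0.30 to 0.034 for HME against model, Upb1 to Dpyd was -0.10 to 0.20 for HME against model, and Upb1 to Dpys was -0.023 to 0.22 for HME against model and -0.18 to 0.032 for HME against control. The values of -0.56 and 1.82 for Upp2 were those without model replicate 2. The cause was not tested.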
